A study of Mus musculus with 24 samples.

Results

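The mammalian circadian clock is a transcription loop that runs in nearly every cell. The activators, Arntl (also called Bmal1) with its partners Clock or Npas2, bind E-boxes in DNA and switch on the Period and Cryptochrome genes, whose proteins then block the activators. In a side loop the nuclear receptors Nr1d1 and Nr1d2 (REV-ERB alpha and beta) repress Arntl, so in mouse tissues the Arntl transcript peaks at about the opposite phase to the Nr1d, Dbp and Per3 transcripts. Heart, muscle and kidney carry clocks of their own, which set daily rhythms of metabolism and of salt transport.

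The set described here is 10 of the 55401 genes in the deposited count table, taken by symbol. No measured level enters that rule, although the genes were picked with earlier results of these data known. They are the activators Arntl and Npas2, the repressors Per1, Per2, Per3 and Ciart, the nuclear receptors Nr1d1 and Nr1d2, and the output transcription factors Dbp and Hlf. RNA without the ribosomal fraction was sequenced from kidney, skeletal muscle and the left ventricle of 8 C57BL6/J mice with no treatment stated. At 86 weeks these were males O14 and O17 and females O11 and O12, and at 16.5 weeks males Y19 and Y20 and females Y14 and Y15. Every mouse gave all 3 tissues, so there are 24 libraries and 4 mice per age and tissue, with no pooling stated. The labels give neither the hour of sampling nor the lighting, and they do not name the muscle or the part of the kidney. A difference of age or sex and a difference in the hour at which the mice of those groups were sampled therefore cannot be told apart.

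The 10 genes lie on 6 chromosomes of GRCm38. Arntl is at chr7:113207465-113314126 and Dbp at chr7:45705088-45710203, both on the plus strand. Per1 is at chr11:69095217-69109960 on the plus strand, with Nr1d1 at chr11:98767932-98775333 and Hlf at chr11:90336536-90390895 on the minus strand. Npas2 is at chr1:39193731-39363236 on the plus strand and Per2 at chr1:91415982-91459324 on the minus strand. Per3 (chr4:151003652-151044665), Ciart (chr3:95878503-95882251) and Nr1d2 (chr14:18204054-18239127) are on the minus strand. All are protein coding. Exons of Nr1d1, Dbp and Arntl overlap exons of Thra, Sphk2 and Gm45355 on the other strand. The strand setting of the counting is not given in the sources used here, so reads of these pairs cannot be told apart. Thra, Sphk2 and Gm45355 themselves passed none of the tests of age, sex or mouse.

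Promoters are shown because the members are classed by the DNA elements through which the loop acts. RefSeq start sites gave windows from 250 bases before to 50 bases after the start for 9 of the 10 members, 11 windows in all. The letters searched on both strands were CACGTG (E-box), CACGTT (the weaker E-prime box), TTATGTAA or TTACGTAA (D-box, the element of Dbp and Hlf), TAGGTCA or TGGGTCA (core of the element that Nr1d1 and Nr1d2 bind) and TGACGTCA (cyclic AMP response element). Below are 4 windows of GRCm38.p6, read 5′ to 3′ on the strand of the gene with the matches in capitals: the repressor Ciart (chr3:95882179-95882478), Per1 (chr11:69098699-69098998), Per3 (chr4:151044616-151044915) and Arntl (chr7:113207261-113207560).
Ciart: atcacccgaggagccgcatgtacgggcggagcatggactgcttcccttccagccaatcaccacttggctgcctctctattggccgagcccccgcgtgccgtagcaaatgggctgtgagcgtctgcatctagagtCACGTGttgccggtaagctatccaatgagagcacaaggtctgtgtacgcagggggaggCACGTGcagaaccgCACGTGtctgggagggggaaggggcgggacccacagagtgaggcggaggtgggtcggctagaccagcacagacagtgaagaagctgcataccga
Per1: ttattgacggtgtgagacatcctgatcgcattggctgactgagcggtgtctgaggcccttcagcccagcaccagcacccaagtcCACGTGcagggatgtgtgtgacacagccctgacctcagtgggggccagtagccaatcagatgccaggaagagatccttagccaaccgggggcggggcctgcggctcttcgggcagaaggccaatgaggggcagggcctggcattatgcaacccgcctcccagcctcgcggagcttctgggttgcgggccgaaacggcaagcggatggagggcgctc
Per3: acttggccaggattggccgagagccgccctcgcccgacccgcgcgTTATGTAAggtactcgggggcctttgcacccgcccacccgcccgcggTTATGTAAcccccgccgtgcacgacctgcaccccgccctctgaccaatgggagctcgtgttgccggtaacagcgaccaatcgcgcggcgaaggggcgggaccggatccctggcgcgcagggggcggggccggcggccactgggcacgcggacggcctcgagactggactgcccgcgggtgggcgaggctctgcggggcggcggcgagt
Arntl: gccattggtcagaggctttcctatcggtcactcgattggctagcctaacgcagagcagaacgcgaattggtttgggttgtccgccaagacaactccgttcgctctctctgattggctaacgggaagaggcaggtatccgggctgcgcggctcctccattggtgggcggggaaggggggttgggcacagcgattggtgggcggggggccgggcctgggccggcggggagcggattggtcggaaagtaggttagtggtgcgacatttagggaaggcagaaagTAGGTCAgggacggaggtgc
The Ciart window held 3 E-boxes, beginning 116, 58 and 44 bases before the start. The first of 2 Per1 windows, shown here, had 1 E-box, Per3 had 2 D-boxes beginning 205 and 158 bases before the start, and Arntl had 1 receptor core beginning 30 bases after it. Among the windows not printed, Nr1d1 held an E-prime box and Hlf a cyclic AMP element. The windows of Dbp, Npas2 and Nr1d2, the other Arntl window and the second Per1 window held no match. No 2 matches overlapped. Over 32544 promoter windows of the same length, 7.17% held an E-box, 4.71% an E-prime box, 1.05% a D-box, 6.48% a receptor core and 1.8% a cyclic AMP element. These are matches of letters in 300-base windows, and nothing about binding was measured.

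Libraries held between 52602585 and 103797551 counts. Levels are CPM (counts scaled to a fixed library size) after TMM scaling, a factor per library that evens out composition. Marker genes fitted the tissue labels: 6 left ventricle markers summed to 39820 to 57945 CPM in left ventricle, 6 fast muscle markers to 113320 to 173852 CPM in skeletal muscle and 4 proximal tubule markers to 7421 to 13465 CPM in kidney. The ventricle markers reached 453 CPM in the skeletal muscle of O17 and 14.5 to 23.4 CPM in that of the other 7 mice. Proximal tubule markers summed to 79.8 CPM in the skeletal muscle of Y19 (9.17 to 24.4 CPM in the other 7). In left ventricle they summed to 52.9 CPM in Y20 and 23.4 CPM in O14 (5.92 to 10.9 CPM in the other 6). Loop and collecting duct markers reached 33.8 CPM in the skeletal muscle of Y19 and 15.5 CPM in the left ventricle of Y20. Adipocyte markers summed to 43.1 CPM in the kidney of Y15 (2.82 to 13.7 CPM in the other 7). The kidney of O12 had 43.8 CPM of ventricle markers (10.2 to 18.7 CPM in the other 7). It had 100.1 CPM of macrophage markers (52.6 to 61.5 CPM in the other 7). Slow muscle markers reached 941 and 699 CPM in the skeletal muscle of O12 and Y14 (328 to 377 CPM in the other 6). The part of these values in the results was not tested. These are bulk tissues, in which fewer cells of a type and less RNA per cell cannot be told apart.

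Per kilobase of exon, the nuclear receptors and Dbp were the most abundant members in skeletal muscle and left ventricle, and Hlf joined them in kidney. Nr1d2 averaged 12.2 ± 5.03 CPM per kilobase in kidney, 22.0 ± 4.67 in skeletal muscle and 13.1 ± 5.53 in left ventricle (SD, n = 8 mice each). Nr1d1 averaged 7.27 ± 2.90, 20.3 ± 4.39 and 10.1 ± 6.18 CPM per kilobase in the same order of tissues. Hlf, a D-box activator related to Dbp, averaged 10.5 ± 2.74 CPM per kilobase in kidney, 2.498 ± 0.732 in skeletal muscle and 2.57 ± 0.743 in left ventricle. The scarcest members were Ciart in kidney, at 0.990 ± 0.966 CPM per kilobase, and Npas2 in skeletal muscle, at 0.626 ± 0.153, and in left ventricle, at 1.15 ± 0.325. Arntl and the Period genes lay between, with means from 1.83 CPM per kilobase for Per2 in left ventricle to 4.71 for Per1 in skeletal muscle. Most neighbours in this order differed by less than the SD over mice, which for Dbp (5.75 ± 5.95 in kidney, 10.4 ± 8.76 in skeletal muscle and 6.90 ± 7.09 in left ventricle) was about as large as the mean.

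**Figure D1:**
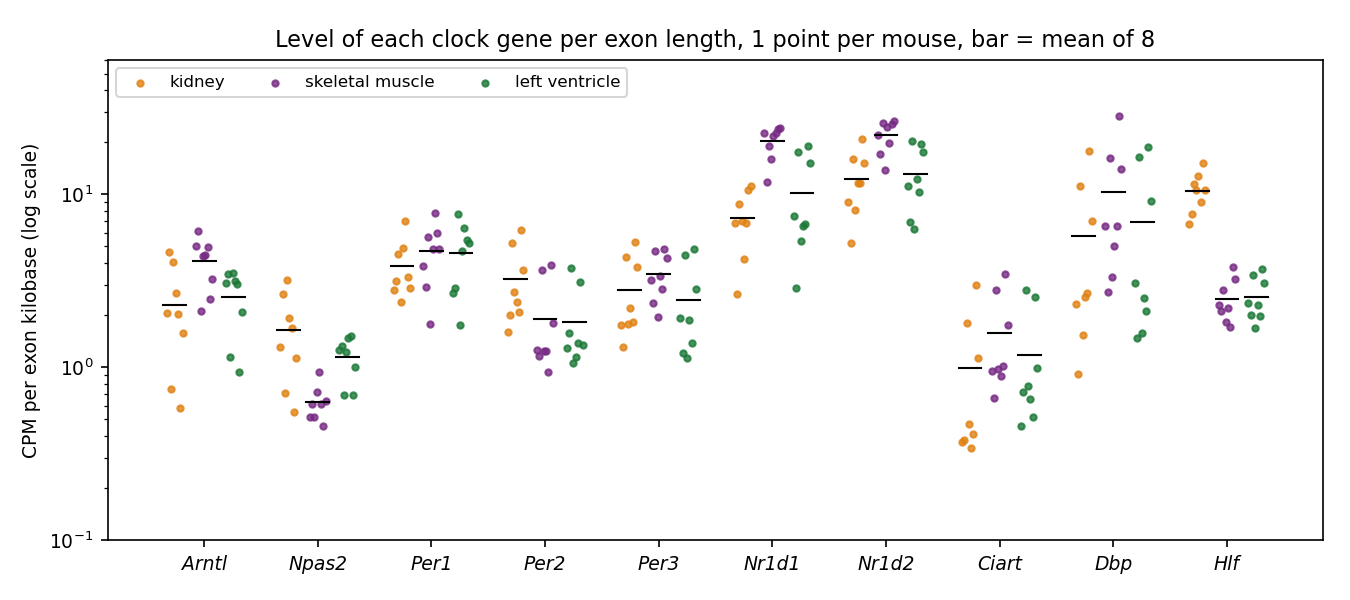
Each point is a mouse and each bar the mean of 8 mice, in CPM per kilobase of exon on a log scale, with kidney, skeletal muscle and left ventricle from left to right for each gene. The spread over mice is wide for Dbp and Ciart, and Hlf stands higher in kidney than in the other tissues.

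Levels of these genes differed up to 19.3-fold between individual mice, and most of these differences recurred in all 3 tissues of a mouse. Dbp, a transcription factor that is among the strongest rhythmic transcripts of mouse tissues, had 33.7, 4.62, 6.93 and 2.75 CPM in the kidneys of O14, O17, O11 and O12, against 53.1, 21.1, 7.59 and 8.02 CPM in those of Y19, Y20, Y14 and Y15. In skeletal muscle it had 48.5, 9.93, 19.6 and 8.16 CPM in the same 86 week mice, against 84.9, 42.2, 14.9995 and 19.7 CPM in the same 16.5 week mice. In left ventricle these values were 49.3, 4.71, 9.21 and 4.42 CPM, against 56.2, 27.4, 7.56 and 6.37 CPM. In each tissue Y19, O14 and Y20 were the highest and O12 the lowest, and the highest mouse exceeded the lowest 19.3-fold in kidney, 10.4-fold in skeletal muscle and 12.7-fold in left ventricle. O14, an 86 week male, stood beside Y19, a 16.5 week male, while O17, the other 86 week male, was second lowest in every tissue.

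Arntl ran the other way. It had 5.67, 30.5, 15.5 and 34.9 CPM in the kidneys of O14, O17, O11 and O12, against 4.39, 11.9, 20.3 and 15.4 CPM in those of Y19, Y20, Y14 and Y15. In skeletal muscle it had 15.9, 33.1, 37.8 and 46.4 CPM in the 86 week mice, against 18.7, 24.5, 33.7 and 37.3 CPM in the 16.5 week mice. In left ventricle it had 8.61, 26.5, 23.2 and 26.2 CPM, against 7.03, 15.7, 23.7 and 22.9 CPM. O14 and Y19 were the 2 lowest mice in all 3 tissues and Y20 was next. The log2 level of Dbp minus that of Arntl ran in kidney from 3.59 in Y19 and 2.57 in O14 over 0.82 in Y20 to -2.72 in O17 and -3.66 in O12. In skeletal muscle it was 2.18, 1.61, 0.78, -1.73 and -2.502 in the same 5 mice, and in left ventricle 2.996, 2.51, 0.80, -2.49 and -2.56. These 5 mice held the same ranks, 1, 2, 3, 7 and 8, in every tissue, and O11, Y14 and Y15 shared ranks 4 to 6.

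**Figure D2:**
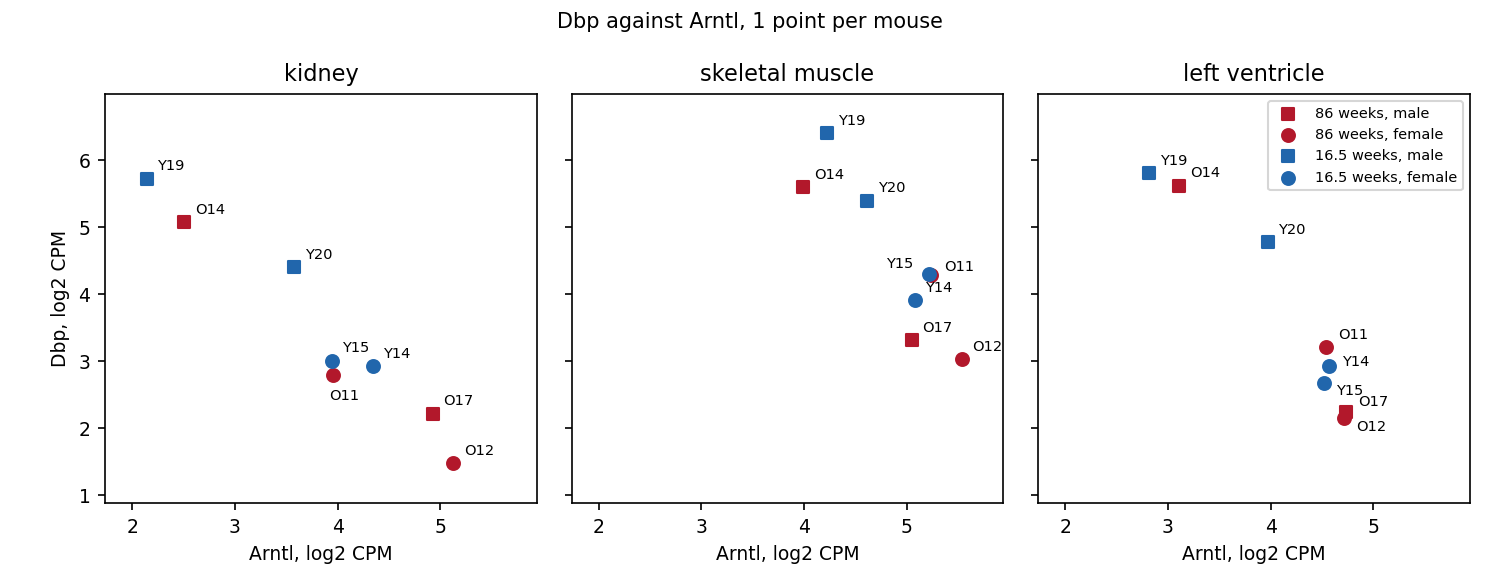
Dbp against Arntl in log2 CPM, 1 point per mouse and 1 panel per tissue, red for 86 weeks, blue for 16.5 weeks, squares for males and circles for females. Y19, O14 and Y20 lie at the upper left and O17 and O12 at the lower right in all 3 panels.

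Whether the tissues of a mouse deviated together was tested for every gene with an F-test on 5 mouse terms in edgeR, after age and sex within each tissue had been taken out (24 libraries, 10 residual degrees of freedom). With Benjamini-Hochberg adjusted p under 0.05, 7 of the 10 members passed, against 0.0511% of the 46984 genes tested, which is 24 genes. The 7 were Dbp (adjusted p = 2.20e-07), Per3 (5.35e-04), Per2 (0.00181), Ciart (0.00183), Per1 (0.00527), Arntl (0.0138) and Nr1d2 (0.0187). Nr1d1 (0.117), Npas2 (0.243) and Hlf (0.997) did not pass. All 10 members had an unadjusted p under 0.05, against 1694 of the 46984 genes. DESeq2 called 9 members, all but Hlf. Dbp passed whichever mouse was left out, and 3 to 7 members did, with 3 without O17 and 4 without O14. Without both O14 and Y19, the 2 mice that stand apart, 2 members passed, Dbp (adjusted p = 9.47e-04) and Nr1d1 (0.0384). No marker of the 8 cell type lists passed in edgeR (0 of 35), with an unadjusted p under 0.05 for 1 marker each of the endothelial, fast muscle, loop and duct, and left ventricle lists, and 0 by DESeq2.

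**Figure D3:**
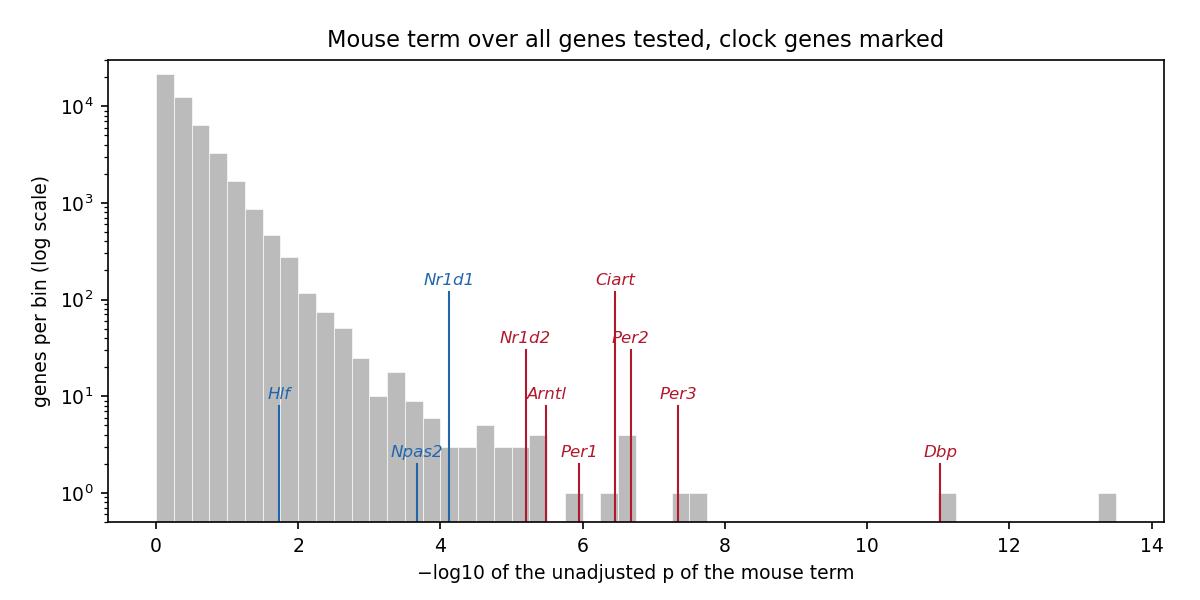
Genes per bin of the −log10 unadjusted p of the mouse term, on a log scale, with the 10 clock genes marked in red (adjusted p under 0.05) or blue. The 7 members in red lie in the far right tail, where Dbp is passed only by Cyp26b1.

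**Figure D4:**
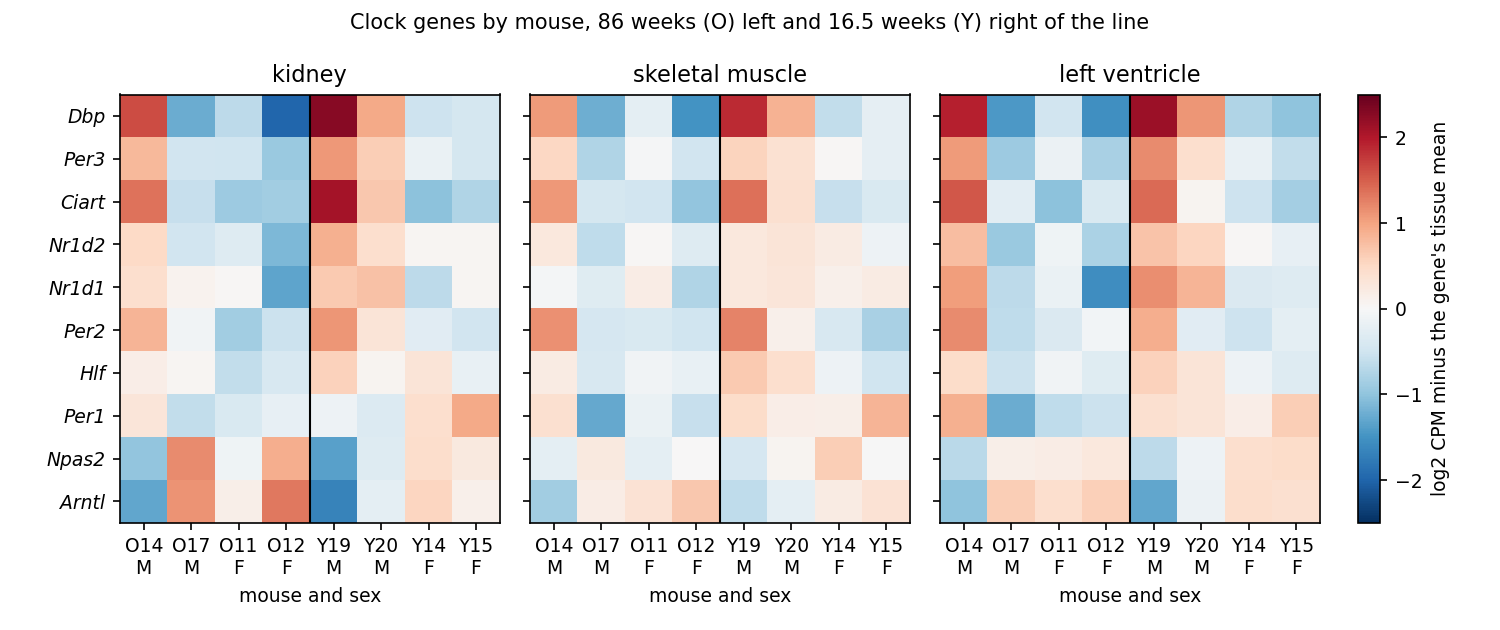
Log2 CPM of each clock gene minus its mean over the 8 mice of a tissue, with 86 week mice left and 16.5 week mice right of the line and males left of females in each. The columns of O14 and Y19 are mostly red in the upper rows and blue for Arntl and Npas2 in all 3 tissues, and O12 and O17 show mostly the reverse.

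Per2, which closes the core loop, had 30.7 and 36.5 CPM in the kidneys of O14 and Y19, against 9.39 to 21.4 CPM in the other 6 mice. In skeletal muscle these were 21.5 and 23.0 CPM against 5.50 to 10.5 CPM, and in left ventricle 21.9 and 18.2 CPM against 6.21 to 9.24 CPM. The 2 mice thus stood apart from the other 6 in every tissue. Ciart, an inhibitor of the Arntl complex, showed the same 2 mice on top, with 4.09 and 6.79 CPM in kidney against 0.771 to 2.56 CPM, 6.37 and 7.85 CPM in skeletal muscle against 1.496 to 3.98 CPM, and 6.31 and 5.75 CPM in left ventricle against 1.04 to 2.23 CPM.

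Per3 put Y20 beside these 2 mice. It had 42.0, 50.7 and 36.5 CPM in the kidneys of O14, Y19 and Y20, against 12.5 to 21.1 CPM in the other 5 mice. In skeletal muscle these were 45.5, 46.6 and 41.4 CPM against 18.8 to 32.4 CPM, and in left ventricle 42.8, 46.6 and 27.3 CPM against 10.9 to 18.6 CPM. Per1, a Period gene that also answers acutely to light, hormones and feeding, had an order of its own. Its highest mouse was Y15 in kidney (39.6 CPM) and skeletal muscle (44.2 CPM), and O14 in left ventricle (43.1 CPM), where Y15 had 35.9 CPM. Its lowest was O17 in all 3 tissues, with 13.4, 9.97 and 9.88 CPM in kidney, skeletal muscle and left ventricle.

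The nuclear receptors and Hlf had narrower ranges than Dbp in each tissue. Nr1d1 was lowest in O12 in each tissue, with 8.21 CPM in kidney, 36.3 CPM in skeletal muscle and 8.88 CPM in left ventricle, and its highest values were 34.2 CPM (Y20), 74.9 CPM (Y20) and 58.5 CPM (Y19). Nr1d2 ranged from 28.2 to 113.5 CPM in kidney, from 74.8 to 144.5 CPM in skeletal muscle and from 34.0 to 110.8 CPM in left ventricle. Hlf ranged 2.26-fold in kidney, 2.24-fold in skeletal muscle and 2.19-fold in left ventricle, and Y19 was highest in each. Npas2, the partner that can stand in for Clock, ranged from 2.64 to 15.4 CPM in kidney, from 2.18 to 4.51 CPM in skeletal muscle and from 3.29 to 7.29 CPM in left ventricle.

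Between tissues, levels over the 8 mice were compared by Pearson's r of log2 CPM with exact two-sided permutation p-values, 30 relations over the members. None passed after adjustment over all genes (0 of 42725 to 43221 genes did), a design in which the smallest possible p is 2.48e-05. For Dbp, r was 0.99 between skeletal muscle and kidney (exact p = 7.44e-05, adjusted 0.612; Spearman's rho 0.98, exact p = 3.97e-04), and 0.97 without O14 and Y19, the mice farthest from the median. It was 0.97 between left ventricle and kidney (exact p = 2.23e-04, adjusted 0.558, and 0.93 without the 2 mice), and 0.97 between left ventricle and skeletal muscle (exact p = 1.49e-04, adjusted 0.294, and 0.94 without them). For Arntl the 3 values were 0.89, 0.95 and 0.93, and 0.63, 0.82 and 0.81 without O14 and Y19. For Per2 they were 0.93, 0.79 and 0.90, but 0.67, -0.25 and -0.11 without those 2 mice, so the relation of Per2 with the left ventricle rests on them. Hlf had 0.94 between left ventricle and skeletal muscle (0.93 without O14 and Y19). Of kidney with skeletal muscle it had 0.55 (0.17 without Y19 and Y20), and with left ventricle 0.54 (0.09 without O14 and Y19). Without O14 and Y19, Ciart fell from 0.90 to 0.46 between left ventricle and skeletal muscle, and Npas2 from 0.83 to 0.34 between left ventricle and kidney. Per3 had 0.95 with and 0.96 without them between left ventricle and skeletal muscle. An unadjusted exact p under 0.05 was found for 6.2% of all genes between skeletal muscle and kidney, 5.64% between left ventricle and kidney and 8.41% between left ventricle and skeletal muscle.

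Within a tissue, Arntl and Dbp had r = -0.97 in kidney, -0.88 in skeletal muscle and -0.96 in left ventricle over 8 mice (exact permutation p = 7.44e-05, 0.00469 and 1.98e-04, none passing after adjustment over all genes in 27 relations; -0.91, -0.78 and -0.98 without O14 and Y19). Npas2 went with Arntl in kidney (r = 0.98, and 0.95 without O14 and Y19). In left ventricle and skeletal muscle its r was 0.95 and 0.45, but 0.65 and -0.24 without those 2 mice. Per1 had r = -0.20 with Arntl in kidney, -0.40 in skeletal muscle and -0.64 in left ventricle. Of all genes, 7.3% in kidney, 6.51% in skeletal muscle and 6.71% in left ventricle had an unadjusted exact p under 0.05 with Arntl.

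The same question can be put without age or sex, by setting the 2 mice of an age and sex against each other in each tissue. All 10 members differed in the same direction in the 3 tissues between O14 and O17, against 23.2% of 42186 genes. This held for 8 members between Y19 and Y20 (26.7% of genes), for 6 between O11 and O12 (21.3%) and for 5 between Y14 and Y15 (32.9%). Between O14 and O17 the log2 difference of Dbp was 2.86 in kidney, 2.29 in skeletal muscle and 3.38 in left ventricle. Between Y14 and Y15 it was -0.08, -0.39 and 0.25, so these 2 mice did not differ in 1 direction. Per3 was the 1 member that shared its direction over the tissues in all 4 pairs (0.439% of genes did). The members belong to 1 loop and are not independent of each other.

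Across mice and tissues the genes most like Dbp and Arntl included other clock genes. Over the 24 libraries, centred within each tissue, the members nearest to Dbp were Per3 (r = 0.97), Nr1d2 (0.91) and Ciart (0.91), and Arntl was the most opposed (-0.93). Outside the 10 members, Dbp ran closest to Tef (r = 0.93), a D-box factor of the same family, and Usp2 (0.90), a deubiquitinase under clock control. Next came Cpt1a (0.82), which brings fatty acids into mitochondria, the Cryptochrome Cry2 (0.80) and Tspan4 (0.80), among 14642 genes with at least 1 CPM on average in each tissue. The most opposed gene outside the members was Nfil3 (-0.89), a repressor at D-boxes. Arntl had r = 0.90 with Npas2, -0.91 with Ciart and -0.90 with Per3. Outside the members it ran closest to Nfil3 (0.94) and Ypel2 (0.89) and most against Tef (-0.85) and Usp2 (-0.82). The libraries of a mouse share that mouse, so these values describe likeness over 8 animals.

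Of 16 other clock genes, 2 passed the mouse term, Bhlhe41 (adjusted p = 0.0188) and Tef (0.0400). Tef had 174 CPM in the kidney of O14 and 62.0 to 100.3 CPM in the other 86 week kidneys, and 245.7 CPM in that of Y19, with 87.5 to 166 CPM in the other 16.5 week kidneys. Bhlhe41, a repressor at E-boxes, had 102 and 113 CPM in the skeletal muscle of O14 and Y19 against 29.4 to 90.8 CPM in the other 6. Clock, the usual partner of Arntl, did not pass and ranged from 53.9 to 82.7 CPM in kidney. DESeq2 called Cry2 as well, and without O14 and Y19 edgeR called 0 of the 16. Of 8 glucocorticoid-responsive and 6 immediate early genes 0 passed in edgeR. Their unadjusted p was under 0.05 for 4 and 2, against 1694 of the 46984 genes tested. DESeq2 called 0 and 1 (Egr1) of these lists. Of 13 clock-controlled outputs 0 passed in edgeR, with an unadjusted p under 0.05 for 7, and DESeq2 called 1, Usp2. Besides these and the 7 members, the 24 genes with the mouse term past the threshold included Cyp26b1 (adjusted p = 2.48e-09), which degrades retinoic acid, and the alpha globins Hba-a2 (0.0398) and Hba-a1 (0.0400), named after their values were seen.

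No member passed the comparison of 86 with 16.5 weeks in any tissue by edgeR's quasi-likelihood test with sex as a term. The counts of members with adjusted p under 0.05 were 0 in kidney, 0 in skeletal muscle and 0 in left ventricle, against 0.112%, 0.0183% and 0.0741% of genes, and DESeq2 gave 0 in each. An unadjusted p under 0.05 was found for 2 members in kidney (Nr1d2 and Hlf), 2 in skeletal muscle (Nr1d1 and Per1) and 0 in left ventricle, against 7.96%, 5.51% and 3.37% of all genes. Most changes pointed down at 86 weeks, with a negative sign in 8, 9 and 7 of the 10 members and a median log2 change of -0.38, -0.28 and -0.23, against 0.02, 0.02 and 0.01 over all genes. These signs are not independent, since the 10 genes belong to 1 loop and were measured in the same libraries. Every member but Npas2 ran against Arntl over the libraries centred within each tissue, with r from -0.39 (Per1) to -0.93 (Dbp).

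Per1 had 25.5, 13.4, 15.7 and 17.8 CPM in the kidneys of O14, O17, O11 and O12, against 18.7, 16.2, 27.7 and 39.6 CPM in those of Y19, Y20, Y14 and Y15. In skeletal muscle these were 32.0, 9.97, 21.7 and 16.4 CPM against 33.7, 27.3, 27.1 and 44.2 CPM, and in left ventricle 43.1, 9.88, 15.1 and 16.2 CPM against 30.7, 29.3, 26.3 and 35.9 CPM. The ages overlapped in all 3 tissues, in left ventricle through O14 alone. Its log2 change was -0.38 ± 0.24 in kidney, -0.71 ± 0.27 in skeletal muscle and -0.59 ± 0.29 in left ventricle (SE, edgeR adjusted p = 0.735, 0.840 and 0.9997). Without O14 the left ventricle change was -1.22 ± 0.16 (edgeR adjusted p = 0.00203), and no other member passed by age in any of the fits that left out a mouse. O14 had the highest 86 week value there, 43.1 CPM, so leaving it out had to make the change more negative.

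Among the activators, Arntl averaged 21.7 ± 13.5 CPM at 86 weeks and 13.005 ± 6.69 CPM at 16.5 weeks in kidney (SD, n = 4 each), a log2 change of 0.84 ± 0.40 (edgeR adjusted p = 0.637). In skeletal muscle and left ventricle its change was 0.26 ± 0.20 and 0.36 ± 0.26. Among the receptors, Nr1d2 averaged 51.9 ± 24.8 CPM at 86 weeks and 80.5 ± 23.8 CPM at 16.5 weeks in kidney (-0.60 ± 0.21, edgeR adjusted p = 0.472, the smallest of any member and tissue). Nr1d1 in skeletal muscle averaged 53.4 ± 14.1 CPM at 86 weeks and 71.3 ± 3.62 CPM at 16.5 weeks (-0.39 ± 0.15). Dbp averaged 11.999 ± 14.6 CPM at 86 weeks and 22.4 ± 21.4 CPM at 16.5 weeks in kidney, 21.5 ± 18.7 and 40.4 ± 31.9 CPM in skeletal muscle, and 16.9 ± 21.7 and 24.4 ± 23.3 CPM in left ventricle. Its changes of -0.76 ± 0.46, -0.72 ± 0.39 and -0.35 ± 0.43 did not pass (edgeR adjusted p = 0.729, 0.939 and 0.9997). An F-test for an age change that depends on the tissue, over all 24 libraries, was passed by 0 of the 10 members (0.0319% of genes did), with an unadjusted p under 0.05 for 0 members and 0 calls by DESeq2.

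**Figure D5:**
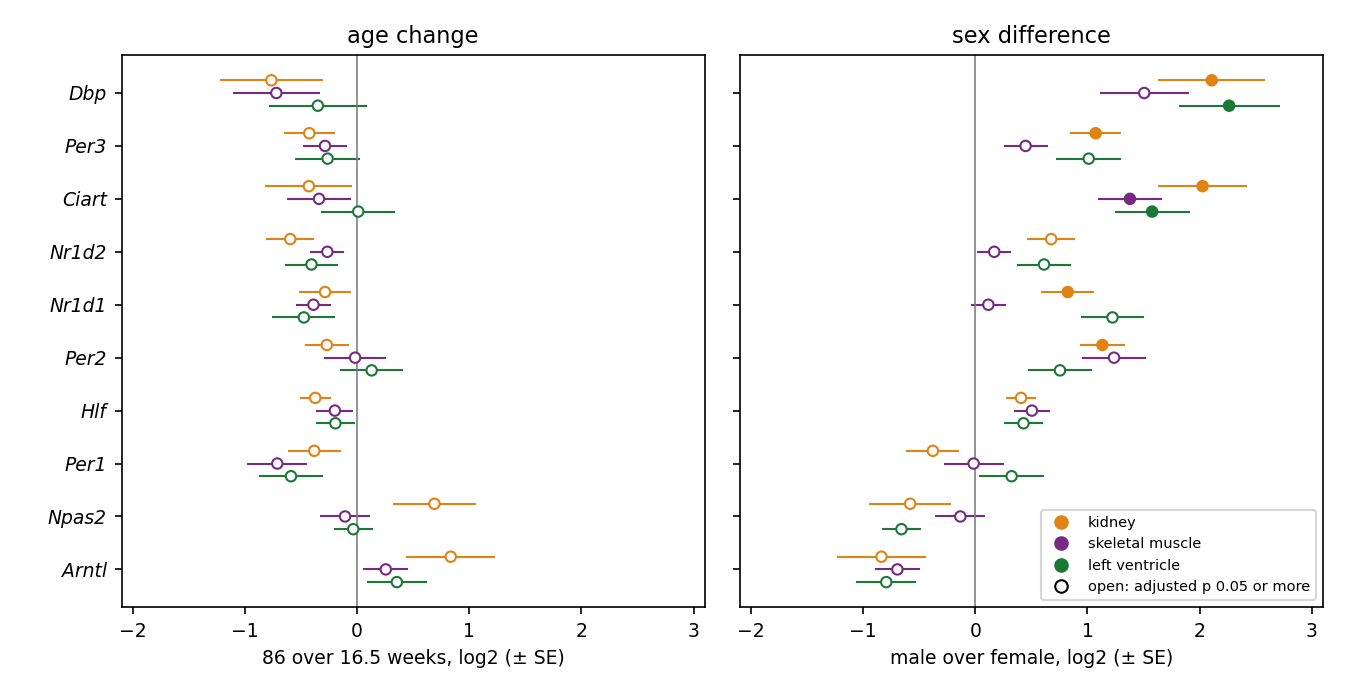
Log2 changes with SE of each clock gene, 86 over 16.5 weeks on the left and male over female on the right, with filled points for an adjusted p under 0.05. On the left all points are open, and on the right Dbp and Ciart lie farthest above 0.

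Lists of related genes gave no age call in edgeR either. Of the other 16 clock genes and of 13 clock-controlled outputs, 0 passed in each tissue in edgeR. An unadjusted p under 0.05 was found for 5, 0 and 2 of the other clock genes and for 6, 2 and 3 of the outputs in kidney, skeletal muscle and left ventricle, where 7.96%, 5.51% and 3.37% of all genes had one. DESeq2 called 4 outputs in kidney (Usp2, Klf15, Scnn1a and Slc9a3) and 0 of either list elsewhere. In kidney the transcription factor Klf15, a regulator of daily nitrogen use, had the smallest p among the outputs, with a log2 change of -0.45 ± 0.11 (edgeR adjusted p = 0.221), followed by the sodium exchanger Slc9a3 (-0.41 ± 0.10, 0.221). In left ventricle Nfil3 and Cry1 led the other clock genes with 0.62 ± 0.24 and 0.45 ± 0.19 (edgeR adjusted p = 0.9997 each). Of 8 glucocorticoid-responsive and 6 immediate early genes 0 passed in each tissue in edgeR. Unadjusted p was under 0.05 for 3, 2 and 3 of the former in kidney, skeletal muscle and left ventricle, and for 0 of the latter. The log2 change of the glucocorticoid-responsive genes was positive for 0 of 8 in kidney (median -0.30). In skeletal muscle the 4 adipocyte markers summed to 16.1 to 127 CPM at 86 weeks and 9.06 to 74.9 CPM at 16.5 weeks, 4 of 4 had a positive log2 change (median 1.52) and 0 passed the test, and their part in the values above was not tested.

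Some members differed between males and females, and O14 and Y19, which stand apart in several of them, are both male. In edgeR 5 of the 10 members differed by sex in kidney, 1 in skeletal muscle and 2 in left ventricle, against 7.58%, 1.36% and 0.871% of genes. All of these were higher in males, as were 3.77%, 0.977% and 0.68% of genes. Ciart passed in all 3 tissues, with log2 differences of 2.03 ± 0.40 in kidney, 1.38 ± 0.29 in skeletal muscle and 1.58 ± 0.33 in left ventricle (edgeR adjusted p = 0.00445, 0.0280 and 0.0291). Dbp passed in kidney (2.11 ± 0.48, 0.0120) and left ventricle (2.26 ± 0.45, 0.0199), and had 1.51 ± 0.40 in skeletal muscle (0.112). Per2 (1.13 ± 0.20, 0.00207), Per3 (1.07 ± 0.23, 0.00784) and Nr1d1 (0.82 ± 0.24, 0.0469) passed in kidney. DESeq2 did not call Nr1d1 in kidney (adjusted p = 0.124) or Dbp and Ciart in left ventricle (0.146 and 0.161), and it added Hlf in kidney (0.43 ± 0.15, 0.0492) and Arntl in skeletal muscle (-0.74 ± 0.20, 0.0117). Dbp averaged 28.1 ± 20.4 CPM in male and 6.32 ± 2.42 CPM in female kidney, 46.4 ± 30.7 and 15.6 ± 5.42 CPM in male and female skeletal muscle, and 34.4 ± 23.3 and 6.89 ± 2.02 CPM in male and female left ventricle (SD, n = 4 each). The sexes overlapped for Dbp in all 3 tissues, because O17 lay within the range of the females.

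O14 and Y19 were left out in an alternative chosen after seeing the data, which leaves 2 males. They had the highest male values of several members, so those differences had to shrink. Then 2 members differed by sex in kidney, 0 in skeletal muscle and 0 in left ventricle (edgeR). The 2 were Per2, with a log2 difference of 0.62 ± 0.12 (adjusted p = 0.0101), and Per1, with -0.71 ± 0.18 (0.0449), which had -0.38 ± 0.24 (0.503) with all mice. O14 (25.5 CPM) and Y19 (18.7 CPM) were the 2 highest males for Per1 in kidney. Leaving them out therefore had to make its difference more negative. Nr1d1 in kidney had 0.74 ± 0.31 (0.317) without the 2 mice. The differences of Dbp were then 0.72 ± 0.37, 0.54 ± 0.36 and 0.91 ± 0.37 in kidney, skeletal muscle and left ventricle. Per2 in kidney had 30.7, 16.0, 36.5 and 21.4 CPM in the males O14, O17, Y19 and Y20, against 9.39, 11.7, 13.95 and 12.3 CPM in the females O11, O12, Y14 and Y15, and the sexes did not overlap. Many kidney genes differed between males and females, among them the proximal tubule markers, with 3 of 4 markers higher and 1 lower in males. The sum of these markers was 10369 to 13465 CPM in males and 7421 to 11770 CPM in females. Their part in the kidney differences was not tested.

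Other clock genes with a sex difference were Tef (1.13 ± 0.17, edgeR adjusted p = 6.90e-04) and Rora (0.35 ± 0.09, 0.0200) in kidney, and Bhlhe41 (1.21 ± 0.18, 0.00501) and Nfil3 (-0.90 ± 0.15, 0.00841) in skeletal muscle. The calls numbered 2 of 16 in kidney, 2 in skeletal muscle and 0 in left ventricle, against 7.58%, 1.36% and 0.871% of all genes. Of 13 outputs 0 differed in skeletal muscle, 0 in left ventricle and 6 in kidney. Usp2 was higher in males (1.08 ± 0.16, 6.11e-04), as were Nampt, Klf15 and Slc9a3, while the potassium channel subunit gene Kcnip2 (-1.48 ± 0.16, 2.38e-05) and the sodium channel subunit gene Scnn1a (-0.48 ± 0.08, 0.00177) were lower. Without O14 and Y19, Tef, Usp2 and Kcnip2 still passed in kidney and no gene of these 2 lists passed in skeletal muscle or left ventricle. With all mice, 3 of 8 glucocorticoid-responsive genes differed in kidney (1 higher and 2 lower in males), 1 in skeletal muscle and 0 in left ventricle (edgeR). Of 6 immediate early genes 0 differed in each tissue.

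Between tissues, Hlf was the member most tied to kidney. It had 76.9, 71.0, 44.8 and 51.8 CPM in the kidneys of O14, O17, O11 and O12 and 101.3, 71.4, 85.9 and 60.2 CPM in those of Y19, Y20, Y14 and Y15, against 11.4 to 25.5 CPM in the 8 skeletal muscles and 11.3 to 24.8 CPM in the 8 left ventricles. Its log2 difference was 2.03 ± 0.14 for kidney over left ventricle and 2.07 ± 0.14 for kidney over skeletal muscle (edgeR adjusted p = 3.12e-12 and 1.70e-12). Kidney and left ventricle differed in 2 members, Hlf and Per2 (0.76 ± 0.23, 0.0119), against 33.6% of genes.

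Kidney and skeletal muscle differed in 8 members, against 43.5% of genes. Hlf, Npas2 (1.34 ± 0.24, edgeR adjusted p = 4.22e-05) and Per2 (0.77 ± 0.23, 0.00880) were higher in kidney. Nr1d1 (-1.54 ± 0.21, 8.32e-07), Nr1d2 (-0.91 ± 0.19, 2.20e-04), Arntl (-0.88 ± 0.28, 0.0114), Ciart (-0.87 ± 0.30, 0.0193) and Dbp (-1.03 ± 0.40, 0.0398) were lower. DESeq2 called 6, losing Dbp (adjusted p = 0.0923) and Ciart (0.0531). Skeletal muscle over left ventricle gave 3 calls (26.6% of genes): Nr1d1 (1.14 ± 0.21, edgeR adjusted p = 9.35e-05) and Nr1d2 (0.79 ± 0.19, 0.00155) were higher and Npas2 (-0.84 ± 0.24, 0.00852) was lower in skeletal muscle.

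Because each mouse gave all tissues, the mouse can be set as a block, and the calls then rose to 7 for skeletal muscle over left ventricle, 4 for kidney over left ventricle and 9 for kidney over skeletal muscle. Under the block 26.2%, 33.0% and 42.2% of all genes were called. The block added Dbp (0.85 ± 0.11, edgeR adjusted p = 1.38e-06), Per3 (0.62 ± 0.09, 1.05e-05), Arntl (0.76 ± 0.14, 2.03e-04) and Ciart (0.49 ± 0.13, 0.00760) for skeletal muscle over left ventricle. It added Ciart (-0.43 ± 0.14, 0.0178) and Nr1d1 (-0.36 ± 0.13, 0.0319) for kidney over left ventricle, and Per3 (-0.41 ± 0.09, 8.14e-04) for kidney over skeletal muscle. Per1 passed in none of the 3 contrasts with or without the block.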

How the data were processed

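Total RNA from 3 tissues of 8 mice was sequenced after ribosomal RNA depletion. The deposited table holds raw counts per gene for 55401 genes and 24 libraries. STAR 2.7.6a, StringTie 2.1.1 and GRCm38.p6 are named per the submitters' processing notes, and the annotation release, strand setting and the step from StringTie to counts are not given in the sources used here. Of the identifiers, 54349 matched GENCODE M21, which gave exon lengths and coordinates.

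From the counts, edgeR 4.0.16 (R 4.3.3) gave TMM scaling, a filter (filterByExpr, minimum count 10) and quasi-likelihood tests, with Benjamini-Hochberg adjustment over all genes tested at 0.05. Age and sex were fitted within each tissue (8 libraries, 5 residual degrees of freedom). Tissue contrasts, the age by tissue test and the mouse term used all 24 libraries. Printed CPM use TMM over the 24 libraries, and log2 CPM a prior count of 2. SE is the size of the log2 change over the root of F. Correlations over mice were tested by all 40320 pairings. Totals of 52602585 to 103797551 counts set the depth, and 4 mice per age limit precision. The part of counting in the spread over mice was not tested. The age and sex p-values within a tissue are judged against the spread between these mice. Those of the mouse term and the mouse block are judged against the spread between tissues within a mouse (10 residual degrees of freedom). Without the block, the tissue contrasts and the age by tissue test treat the libraries of a mouse as independent (15 residual degrees of freedom).

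Equal mouse names across tissues mark 1 animal, which is where the pairing for the mouse block comes from. The median r over mice of all genes was 0.17 between left ventricle and skeletal muscle, -0.01 between left ventricle and kidney and -0.04 between skeletal muscle and kidney. Across ages the numbers pair nothing, since O14 and Y14 are different animals. DESeq2 1.42.0, other scaling, no filter, other terms and leaving out mice were tried. The scripts were tested on simulated data. The members and lists were chosen with earlier results of these data known. All 10 members are described. Genes beyond the fixed lists were named by likeness to Dbp and Arntl (the 5 highest and 5 lowest), or after their values were seen where the text says so.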

Additional observations from a re-analysis of the deposited data

Results flagged for a closer look

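In 9 of 60 groups of 4 mice, 1 mouse lay far from the other 3 (Dixon's criterion, which flags about 5% of groups by chance). In 8 of the 9 that mouse was O14, the 86 week male beside O17. O14 was the highest 86 week mouse for Dbp in kidney (33.7 CPM) and left ventricle (49.3 CPM), for Per3 in kidney (42.0 CPM) and for Per2 in skeletal muscle (21.5 CPM). It was also the highest for Ciart in kidney (4.09 CPM), skeletal muscle (6.37 CPM) and left ventricle (6.31 CPM). For Npas2 it was the lowest 86 week mouse in left ventricle (3.29 CPM). The remaining flag was Y19, the highest 16.5 week mouse for Per2 in left ventricle (18.2 CPM). The groups share mice and the genes belong to 1 loop, so the 9 flags are not independent.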

How the results depend on the processing

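With 4 mice per age, 2 of each sex, and no hour of sampling given, the age and sex results are limited by the number of mice. Where a count changed, the cause was not tested. For the members, the mouse block gave 7 calls for skeletal muscle over left ventricle and 4 for kidney over left ventricle, and changed no call of the age by tissue test. DESeq2 called 2 members by sex in skeletal muscle and 0 in left ventricle. With no filter on low counts 3 members differed by sex in kidney, 0 in skeletal muscle and 0 in left ventricle. Without O14 and Y19, chosen after seeing the data, these were 2, 0 and 0, and 2 passed the mouse term.

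Over all genes, the age calls were 238 in kidney, 90 in skeletal muscle and 70 in left ventricle by DESeq2, 1, 0 and 18 without the filter, and 0 in kidney and 1 in skeletal muscle without the sex term. The age by tissue calls were 52 by DESeq2, 7 with RLE scaling and 5 without the filter. The sex calls were 918 in skeletal muscle and 725 in left ventricle without the filter, and 1669, 154 and 80 in kidney, skeletal muscle and left ventricle without O14 and Y19. The mouse term gave 59 by DESeq2, 10 without the filter, 867 without age and sex terms and 11 without O14 and Y19.

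Leaving out each mouse in turn, members called by age numbered 0 to 0 in kidney, 0 to 0 in skeletal muscle and 0 to 1 in left ventricle, and all genes 19 to 69, 1 to 43 and 24 to 117. Members called by sex numbered 3 to 8, 0 to 5 and 0 to 9, with the highest counts without O17, and all genes in skeletal muscle 345 to 718 and in left ventricle 161 to 374. The age by tissue calls were 4 to 26. Members called were 3 to 6 for skeletal muscle over left ventricle, 1 to 2 for kidney over left ventricle and 3 to 7 for the mouse term, with 12 to 21 genes in all.

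Some uncalled values changed sign. Without O14 and Y19 the sex differences were -0.38 for Per1 and -0.19 for Per2 in left ventricle, 0.10 for Npas2 and -0.054 for Nr1d2 in skeletal muscle, and 0.048 for Npas2 in kidney. Per1 for skeletal muscle over left ventricle was -0.036 by DESeq2, -0.037 with RLE and -0.037 without the filter. With each mouse left out, the age changes in left ventricle ran over -0.10 to 0.56 (Arntl), -0.26 to 0.080 (Npas2), -0.30 to 0.44 (Per2), -0.68 to 0.052 (Per3), -1.08 to 0.076 (Dbp), -0.46 to 0.37 (Ciart) and -0.36 to 0.016 (Hlf). In skeletal muscle they ran over -0.019 to 0.44 (Arntl), -0.31 to 0.10 (Npas2) and -0.32 to 0.29 (Per2), and in kidney -0.81 to 0.062 (Ciart). The sex differences ran over -0.29 to 0.55 (Per1, left ventricle), -0.35 to 0.061 (Npas2), -0.45 to 0.19 (Per1) and -0.041 to 0.31 (Nr1d1) in skeletal muscle. Skeletal muscle over left ventricle ran over -0.052 to 0.13 (Per1), -0.086 to 0.061 (Per2) and -0.082 to 0.018 (Hlf), and r of Per1 with Arntl in kidney over -0.35 to 0.0057.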
